A study of Mus musculus with 6 samples.

Results

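Nodal, its co-receptor Cripto (gene Tdgf1), its inhibitors Lefty1 and Lefty2 and the activin receptor genes Acvr1b and Acvr2b were followed in mouse ovaries at 13.5 days post coitum (dpc). The 6 genes were chosen by symbol as ligand, co-receptor, inhibitors and receptors of one pathway, with earlier results of these data known. Each matched 1 of the 48709 Ensembl genes in the count table. Only 3 of them, Nodal, Acvr1b and Acvr2b, passed the expression filter of the test. CD1 dams received acetaminophen (APAP, 30 mg/kg per day) and ibuprofen (IBU, 15 mg/kg per day) in alternation every 3 h by gavage from 10.5 to 13.5 dpc, and control dams received ethanol on the same schedule. Polyadenylated RNA of 3 control and 3 APAP+IBU pools of embryonic gonads was sequenced, each pool as 1 library of whole organs, wild type in both groups. For the exposed libraries, only IBU appears in the titles, and both drugs appear in the exposure label. RNA of whole ovaries was measured, so fewer cells of a type and less RNA per cell cannot be told apart.

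Nodal is a secreted ligand of the TGF-beta superfamily. It binds a type II receptor such as the product of Acvr2b and the type I receptor ALK4 (the product of Acvr1b), and it needs an EGF-CFC co-receptor such as Cripto to do so. The receptors phosphorylate SMAD2 and SMAD3, which join SMAD4 and, at many targets, FOXH1. Nodal itself and the Lefty genes are targets of the pathway, and the LEFTY proteins block the ligand and the co-receptor. In the gonad the pathway is known from germ cells of the fetal testis, where Nodal, Tdgf1 and the Lefty genes are switched on while the germ cells are still close to pluripotency. Germ cells of the fetal ovary enter meiosis at this time instead.

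Of the 6 members, the receptor genes Acvr1b and Acvr2b were well expressed in the ovaries, and Nodal, Tdgf1, Lefty1 and Lefty2 were present in traces. Per length of exon, Acvr1b averaged 9.55 CPM (read counts scaled to the size of each library) per kilobase and Acvr2b 2.32 over the 6 libraries, against 0.167 for Nodal, 0.0614 for Lefty2, 0.0504 for Lefty1 and 0.0137 for Tdgf1. In every APAP+IBU library Acvr2b lay above every control library, as did 4.78% of tested genes, while 5.92% lay below. The fold change of Acvr2b in edgeR was 1.41, without passing the adjusted threshold. No difference between the groups was called for any of the 6 genes by edgeR or DESeq2.

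Total counts per library ran from 37811968 to 48954631. All 10 genes listed as fetal ovary somatic markers had counts in every library and summed to between 1112 and 1480 CPM. The 10 testis somatic markers summed to 39.2 to 90.1 CPM. Of the ovary list, Wt1, Gata4, Lhx9 and Nr5a1 averaged 280, 222, 182 and 158 CPM and are not specific to the ovary. Wnt4 and Rspo1 averaged 161 and 69.9 CPM, and Foxl2 averaged 3.88 CPM. The sums therefore do not measure ovary against testis RNA. The 8 germ cell markers summed to 852 to 1158 CPM in control and 1023 to 1163 CPM in APAP+IBU libraries, so the groups overlapped. Libraries stood apart in 3 ways. The 10 spermatid markers summed to 45.2 to 146 CPM in control and 3.65 to 8.83 CPM in APAP+IBU libraries. The 12 liver markers reached 2032 and 3303 CPM in replicate 3 of control and APAP+IBU, against at most 571 CPM elsewhere. A sum of 4 Y-linked genes, chosen after the counts were seen, was 9.37 CPM in control replicate 2 and 2.26 to 2.86 CPM in the other libraries. Each comparison is therefore also given with replicates 1 and 2 alone where that matters. This leaves out the high liver RNA of replicate 3 but keeps control replicate 2 and the spermatid difference. In those libraries the testis somatic markers summed to 71.0 and 90.1 CPM in control, against 55.1 and 46.8 CPM in APAP+IBU. The part of testis RNA in the falls found with replicates 1 and 2 was not tested.

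Of the 6 members, 4 matched the promoter table, and Lefty1 and Lefty2 did not. The gene starts of Nodal and Tdgf1 differed from those of both receptor genes in their content of CG dinucleotides, which is why the upstream sequences are shown. They are RefSeq sequences on GRCm38.p6, read 5' to 3' along the strand of the gene up to its annotated start, and capitals mark each CG. Nodal is given from chr10:61417722-61417971 (plus strand), Tdgf1 from chr9:110946159-110946408 (minus strand), Acvr1b from chr15:101173822-101174066 (plus strand) and Acvr2b from chr9:119401928-119402117 (plus strand).
Nodal: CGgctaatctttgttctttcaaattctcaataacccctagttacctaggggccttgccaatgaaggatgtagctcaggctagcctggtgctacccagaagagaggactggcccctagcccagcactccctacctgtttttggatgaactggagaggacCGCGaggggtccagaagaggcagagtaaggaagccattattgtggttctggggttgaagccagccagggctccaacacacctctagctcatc
Tdgf1: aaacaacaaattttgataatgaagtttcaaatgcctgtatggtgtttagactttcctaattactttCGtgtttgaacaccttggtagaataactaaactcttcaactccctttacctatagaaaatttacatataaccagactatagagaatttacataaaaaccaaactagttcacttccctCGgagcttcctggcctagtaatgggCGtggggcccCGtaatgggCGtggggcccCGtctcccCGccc
Acvr1b: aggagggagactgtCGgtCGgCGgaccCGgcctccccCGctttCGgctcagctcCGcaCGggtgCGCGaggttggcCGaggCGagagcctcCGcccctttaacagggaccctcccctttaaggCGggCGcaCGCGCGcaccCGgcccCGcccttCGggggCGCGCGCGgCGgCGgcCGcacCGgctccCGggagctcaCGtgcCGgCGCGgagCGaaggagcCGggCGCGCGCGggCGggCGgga
Acvr2b: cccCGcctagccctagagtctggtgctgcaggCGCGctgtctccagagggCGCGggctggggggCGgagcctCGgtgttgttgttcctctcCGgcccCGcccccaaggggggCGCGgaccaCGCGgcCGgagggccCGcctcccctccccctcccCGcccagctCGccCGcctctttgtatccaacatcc

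In the full windows of 300 bases (250 before and 50 after the RefSeq start), Nodal had 5 CG dinucleotides and Tdgf1 had 7. Acvr2b had 27 and Acvr1b had 51. The median of the 27025 promoters of that length was 7, with quartiles at 3 and 21. Thus 61.7% of promoters held at least as many CGs as Nodal and 52.3% at least as many as Tdgf1, whereas 15.4% reached the number of Acvr2b and 0.703% that of Acvr1b. Among the members and 37 other pathway genes, 31 had a promoter in the table. The 18 with at least 21 CGs had a median level of 10 CPM per kilobase, ranging from 0 (Gdf1) to 43.3 (Drap1). The 13 with fewer CGs had a median of 0.419 CPM per kilobase, ranging from 0.0137 (Tdgf1) to 19.3 (Inha). The motif AATNCACA, to which FOXH1 binds, was searched on both strands. It was absent from all 4 member windows, and only 3.63% of all promoters held it. So few windows cannot tell a lack of the motif from its usual rarity. Sequence outside the windows was not searched, and Lefty1 and Lefty2 had no window.

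**Figure D1:**
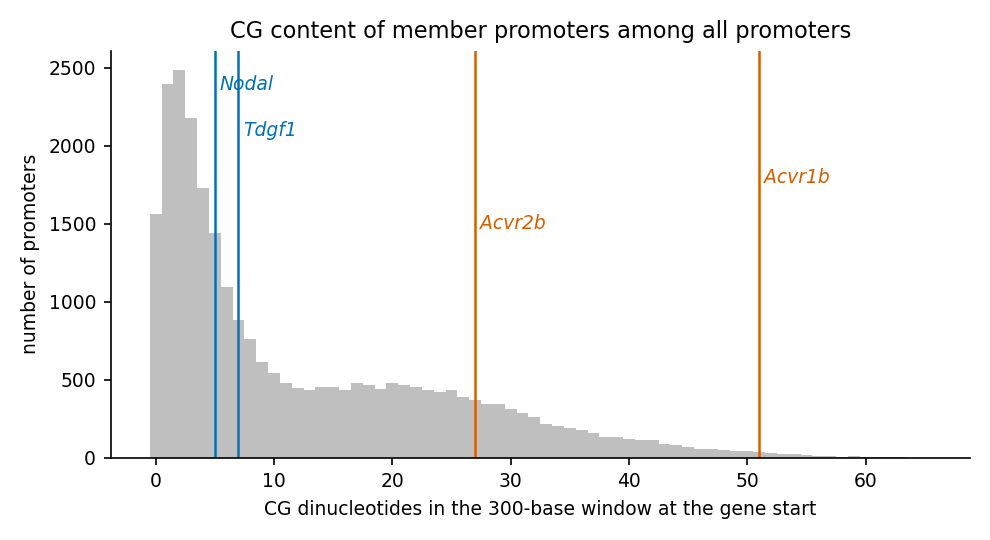
Number of CG dinucleotides in the 300-base window at the gene start (x axis) against the number of promoters (y axis, grey bars, 27025 in all). Vertical lines mark Nodal at 5 and Tdgf1 at 7, near the median of 7, and Acvr2b at 27 and Acvr1b at 51, in the right part of the distribution.

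The ligand gene Nodal (ENSMUSG00000037171) lies on chromosome 10 of GRCm38 from 61417972 to 61425338 on the plus strand, and none of its exons overlaps another gene. It had 17, 10 and 9 counts in control replicates 1, 2 and 3 and 21, 11 and 20 counts in APAP+IBU replicates 1, 2 and 3. That made 0.446, 0.268 and 0.207 CPM against 0.414, 0.240 and 0.521 CPM. The groups overlapped, with control replicate 1 second only to APAP+IBU replicate 3. Control ovaries averaged 0.307 ± 0.124 CPM and APAP+IBU ovaries 0.392 ± 0.142 CPM (SD, n = 3 each). The log2 fold change in edgeR was 0.35 with a standard error of 0.47 and an adjusted p of 0.805, and with replicates 1 and 2 alone it was -0.10 (adjusted p = 0.918). With the length and GC correction it was 0.31 for these 4 libraries and 0.54 for all 6, so the sign without replicate 3 depended on that correction. Summed over libraries, 36 counts in control stood against 52 in APAP+IBU ovaries, a ratio of 1.27 after scaling to effective library size, with a 95% exact interval from 0.816 to 2.00. This and the other intervals on summed counts cover counting error only.

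The co-receptor gene Tdgf1 (ENSMUSG00000032494; chromosome 9, 110939603 to 110946158, minus strand) was at the edge of detection. Its counts were 1, 0 and 2 in the control libraries and 2, 0 and 4 in the APAP+IBU libraries, 9 in all. Of the 6 libraries, 1 held more than 3 counts, a floor that corresponds to 0.0592 to 0.0803 CPM. A difference between 3 and 6 summed counts was not detectable at this depth, the ratio of 1.76 having an interval from 0.376 to 10.9. Of the 50-base stretches of the Tdgf1 transcripts, 8.86% also occur in the pseudogene Tdgf1-ps1, so reads from those stretches may have gone uncounted.

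The inhibitor genes Lefty1 (ENSMUSG00000038793, 180935022 to 180938400) and Lefty2 (ENSMUSG00000066652, 180893108 to 180899103) are neighbours on the plus strand of chromosome 1. Lefty1 had 0, 8 and 2 counts in control and 8, 4 and 1 counts in APAP+IBU libraries. Libraries with and without more than 3 counts occurred in both groups, and the summed counts of 10 and 13 gave a ratio of 1.15 (95% exact interval 0.464 to 2.92). Lefty2 had 8, 8 and 9 counts in control and 4, 2 and 8 counts in APAP+IBU libraries. In CPM these were 0.210, 0.214 and 0.207 against 0.0789, 0.0437 and 0.208. The control libraries were nearly equal, APAP+IBU replicates 1 and 2 lay below them, and APAP+IBU replicate 3 lay among them. Control ovaries averaged 0.210 ± 0.00349 CPM and APAP+IBU ovaries 0.110 ± 0.0867 CPM (SD, n = 3 each). At 8, 8 and 9 counts the control SD is smaller than counting error alone would give. It therefore does not show how tightly the control level was fixed. The ratio of summed counts, 14 against 25, was 0.493 with an interval from 0.237 to 0.986, which leaves out the spread between pools. In an edgeR fit without the expression filter, where that spread is included, the estimate for Lefty2 was -0.94 on the log2 scale (standard error 0.71, adjusted p = 0.739). The Lefty genes share 306 stretches of 50 bases, 17.9% of those in Lefty1 and 12.0% of those in Lefty2, so part of their reads may have gone uncounted.

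The type I receptor gene Acvr1b (ENSMUSG00000000532; chromosome 15, 101174067 to 101213684, plus strand) was the most abundant member. It had 1631, 1442 and 1830 counts in control and 2099, 2070 and 1653 counts in APAP+IBU libraries, or 42.8, 38.6 and 42.2 CPM against 41.4, 45.2 and 43.0 CPM. The groups overlapped around means of 41.2 ± 2.25 and 43.2 ± 1.91 CPM (SD, n = 3 each). The edgeR log2 fold change was 0.07 with a standard error of 0.12 (adjusted p = 0.849), and the values of all 6 libraries lay within a narrow band.

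The type II receptor gene Acvr2b (ENSMUSG00000061393; chromosome 9, 119402118 to 119434995, plus strand) had the largest difference relative to its error among the 3 tested members. It had 295, 290 and 312 counts in control and 483, 499 and 445 counts in APAP+IBU libraries. In CPM these were 7.74, 7.77 and 7.19 against 9.52, 10.9 and 11.6. Every APAP+IBU library lay above every control library, which 4.78% of the 20167 tested genes did in that direction. The means were 7.56 ± 0.327 CPM and 10.7 ± 1.05 CPM (SD, n = 3 each). The log2 fold change in edgeR was 0.50 with a standard error of 0.17, an unadjusted p of 0.0201 and an adjusted p of 0.692. An unadjusted p under 0.05 was reached by 6.22% of tested genes, and Acvr2b ranked 494th among them. The exact two-sided permutation test of its log2 CPM gave p = 0.1, the smallest value that 3 against 3 libraries allow. With replicates 1 and 2 alone the log2 fold change was 0.42 (standard error 0.17, adjusted p = 0.114). Relative to the mean of 8 germ cell markers the difference was 0.56 on the log2 scale (exact permutation p = 0.1). Of these markers, 3 had higher and 5 lower edgeR log2 fold changes, from -0.40 for Tfap2c to 0.35 for Dazl. The difference therefore depends on the choice of markers, and single markers were not tried as the reference for Acvr2b. The spermatid markers also separated the groups, in the opposite direction, and their part in the value of Acvr2b was not tested.

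**Figure D2:**
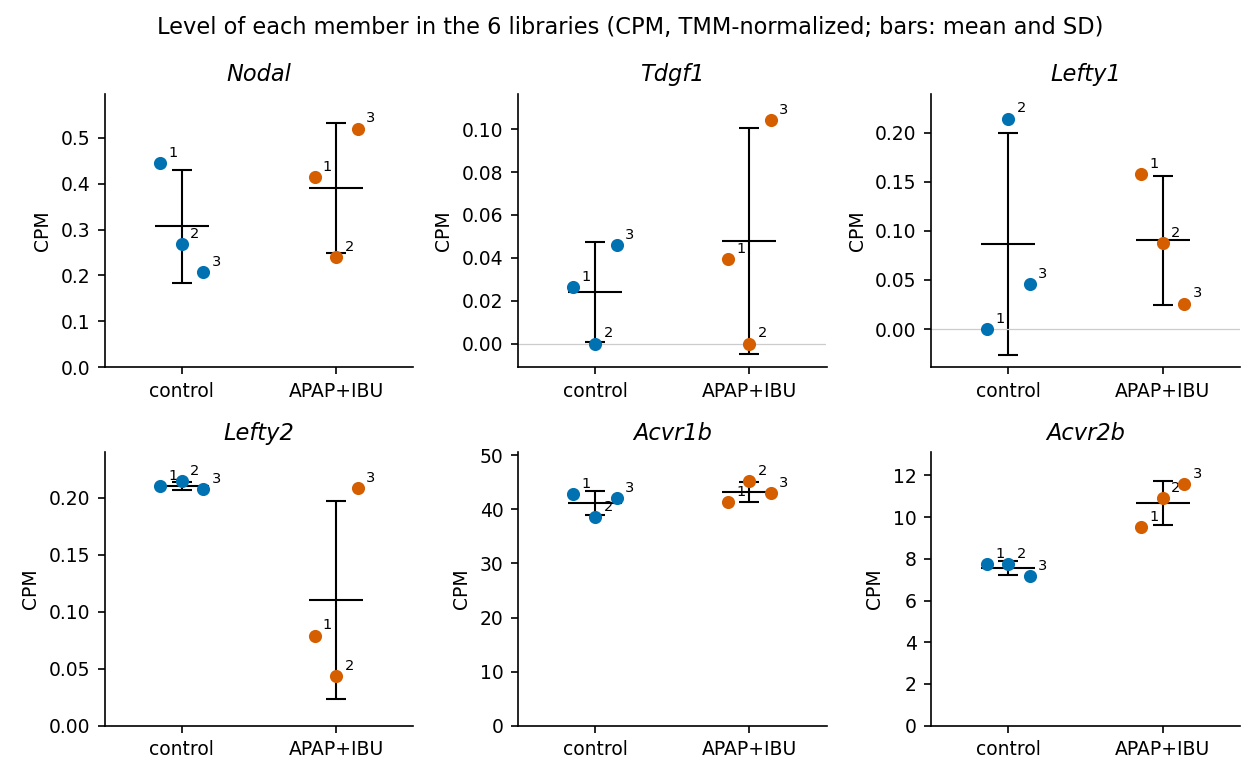
CPM (y axis, linear) of the 6 genes in control (blue) and APAP+IBU (orange) libraries, numbered by replicate, with the mean as a horizontal line and SD as error bars (n = 3). Each panel has its own scale. The groups overlap for Nodal, Tdgf1, Lefty1, Lefty2 and Acvr1b. Only for Acvr2b do all APAP+IBU libraries (9.52 to 11.6 CPM) lie above all controls (7.19 to 7.77 CPM), as for 4.78% of tested genes.

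In the order of levels per kilobase, Acvr1b exceeded Acvr2b in 6 of 6 libraries, by 4.12-fold on average, and Acvr2b exceeded Nodal in 6 of 6 by 13.9-fold. Nodal exceeded Lefty2 in 6 of 6 libraries, by 2.72-fold on average. Below that the order was not settled: Lefty2 was above Lefty1 in 3 of 6 libraries and Lefty1 above Tdgf1 in 4 of 6. Acvr1b stood above 73.0% and Acvr2b above 50.1% of 21695 protein-coding genes in level per kilobase. Nodal stood above 28.8%, Lefty2 above 22.8%, Lefty1 above 21.8% and Tdgf1 above 16.6%, a range shared with genes that have few or no counts.

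Nodal and Tdgf1 were also set against the germ cell markers, since germ cells are their known source in the gonad. The log2 CPM of Nodal minus the mean log2 CPM of the 8 markers was -6.93, -7.24 and -7.83 in control libraries and -6.62, -7.50 and -6.68 in APAP+IBU libraries. The groups overlapped, with a difference of 0.40 (exact two-sided permutation p = 0.4). For Tdgf1 the difference was 0.48 (exact permutation p = 0.6). With Dazl alone as the reference, the difference for Nodal was -0.035. The testis somatic markers were highest in control replicate 2, at 90.1 CPM, and this library was also the highest of the 4 Y-linked genes. Nodal was at 0.268 CPM there, between the other controls. In control replicate 1, with the next highest testis sum of 71.0 CPM, Nodal was at 0.446 CPM. Tdgf1 had no count in control replicate 2, and Lefty1 had its highest level there. The part of testis RNA in these values was not tested.

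By the smallest root mean square difference of centred log2 CPM over the 6 libraries, among 16061 or 16062 genes of at least 1 CPM, the genes most like Acvr2b were Eno4 (0.0589), Magel2 (0.0849) and Brpf3 (0.105). Brpf3 was at 92.1, 90.7 and 102 CPM in control and 112, 141 and 135 CPM in APAP+IBU libraries. Its lack of overlap follows largely from its being picked for likeness to Acvr2b. Nearest to Acvr1b were Dag1, Stard8 and Tnfrsf25, at 0.0197 to 0.0261. Nearest to Nodal were Wfdc13, Siglecg and Ccdc74a, at 0.183 to 0.184, a looser likeness that includes the counting error of a gene with 9 to 21 counts.

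Of 37 further pathway genes, 34 were tested. None was called with 6 libraries by edgeR or DESeq2. EdgeR called 0% of the 20167 tested genes there, and 1254 had an unadjusted p under 0.05. The point estimates were higher for 17 and lower for 17, with a median log2 fold change of 0.004 against -0.005 over all tested genes. At an unadjusted p under 0.05, 0 were higher and 2 lower. With replicates 1 and 2 alone, 8 rose and 4 fell at an adjusted p under 0.05 in edgeR, where 14.2% of 20633 tested genes rose and 12.9% fell. After correction of these 4 libraries for gene length and GC content, 5 of the 34 were called, where 2709 of all 20633 tested genes were.

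Among the other ligands and the second co-receptor, Gdf3, a relative of Nodal that uses the same receptors, was at 3.83, 3.96 and 4.86 CPM in control and 2.09, 2.53 and 4.27 CPM in APAP+IBU libraries. APAP+IBU replicate 3 overlapped the controls, and the log2 fold change was -0.51 with a standard error of 0.31 (edgeR adjusted p = 0.692). Cfc1, which encodes the EGF-CFC protein Cryptic, was at 1.39, 0.643 and 0.461 CPM in control and 0.256, 0.197 and 0.937 CPM in APAP+IBU libraries. It fell by 2.13 on the log2 scale with replicates 1 and 2 (adjusted p = 0.0305) and was not called with all 6 libraries (adjusted p = 0.710), replicate 3 of the exposed group being above 2 of the controls. Per kilobase, Cfc1 exceeded Tdgf1 in every library. Gdf1 had no count in any library, which allows up to 3 counts in each. It is known to share a transcript with Cers1, which had 1.41 to 3.08 CPM, and reads on both may have been left uncounted. The activin subunit genes Inhba (0.419 CPM per kilobase) and Inhbb (6.57) both exceeded Nodal in mean level per kilobase, and neither was called.

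Of 4 other receptor genes, 3 had higher point estimates in APAP+IBU ovaries and none was called with 6 libraries. Acvr2a, the second activin type II receptor gene, was at 28.5, 33.2 and 53.3 CPM in control and 55.7, 46.6 and 39.5 CPM in APAP+IBU libraries. Control replicate 3 was close to the highest exposed library, and APAP+IBU replicate 3 was the lowest of its group. The 0.75 log2 rise called with replicates 1 and 2 (adjusted p = 0.0105) stood against 0.30 (adjusted p = 0.716) with all 6. Acvr1c, which encodes the type I receptor ALK7, was at 1.31, 1.04 and 1.41 CPM in control and 2.88, 1.49 and 1.95 CPM in APAP+IBU libraries. All its APAP+IBU libraries lay above all controls, as for 4.78% of tested genes, Acvr2b among them. The log2 fold change of Acvr1c was 0.75 with a standard error of 0.33 (edgeR adjusted p = 0.692). Tgfbr1, the TGF-beta type I receptor gene, had the same pattern as Acvr2a, with 0.69 for replicates 1 and 2 (adjusted p = 0.00986) and 0.30 for all 6 libraries (adjusted p = 0.700).

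The SMAD genes of the pathway were well expressed in both groups. Smad3 was at 128, 129 and 153 CPM in control and 157, 162 and 146 CPM in APAP+IBU libraries, and Smad4 at 82.9, 86.3 and 102 CPM against 110, 99.5 and 101 CPM. Both stood above about 91% of protein-coding genes per kilobase (91.0 for Smad3 and 90.9 for Smad4). Each rose by 0.33 on the log2 scale with replicates 1 and 2 (adjusted p = 0.0272 and 0.0439) and overlapped between the groups with all 6 libraries (adjusted p = 0.699 and 0.698). Smad2 was at 79.5, 79.7 and 99.5 CPM in control and 84.0, 91.3 and 86.2 CPM in APAP+IBU libraries, a log2 fold change of 0.02 (adjusted p = 0.970). Trim33, a SMAD4-binding ubiquitin ligase, rose by 0.65 with replicates 1 and 2 (adjusted p = 0.00721) but had an adjusted p of 0.740 with 6 libraries.

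Foxh1, the DNA-binding partner of the SMADs at the Nodal and Lefty genes, was at 18.9, 10.1 and 12.7 CPM in control and 6.84, 8.996 and 16.1 CPM in APAP+IBU libraries. The groups overlapped (log2 fold change -0.39, standard error 0.35, adjusted p = 0.739). Eomes and Mixl1, transcription factor genes that Nodal signals activate in the early embryo, were the 2 genes with an unadjusted p under 0.05. Eomes was at 0.813, 0.803 and 0.737 CPM in control and 0.493, 0.349 and 0.521 CPM in APAP+IBU libraries, so its log2 difference was -0.79 (standard error 0.33, edgeR adjusted p = 0.692). Mixl1 was at 1.81, 1.45 and 1.59 CPM against 0.828, 0.917 and 1.17 CPM, a log2 difference of -0.73 (standard error 0.28, edgeR adjusted p = 0.692). Both lay below every control in every exposed library, as did 5.92% of tested genes.

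Of 7 genes for extracellular processing and inhibition of the ligands, 6 were tested and none was called with 6 libraries. Cer1, a secreted Nodal inhibitor, had 6 counts over the control and 15 over the APAP+IBU libraries, a ratio of 2.20 with an exact interval from 0.808 to 6.93. Inha, the inhibin alpha gene, fell by 0.57 on the log2 scale with replicates 1 and 2 (adjusted p = 0.0358) and had an adjusted p of 0.758 with all 6. Among 10 intracellular inhibitors, Skil, Lemd3 and Smurf2 were called higher with replicates 1 and 2, by 0.43 to 0.54 on the log2 scale. Tgif2 and Drap1 were called lower there, by 0.47 and 0.49. In that fit 14.2% of all tested genes were called higher and 12.9% lower. With 6 libraries the edgeR adjusted p of these named inhibitors ran from 0.698 to 0.805. Of 4 early embryo targets (Gsc, T, Foxa2 and Lhx1), 3 were tested and none was called in either fit.

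**Figure D3:**
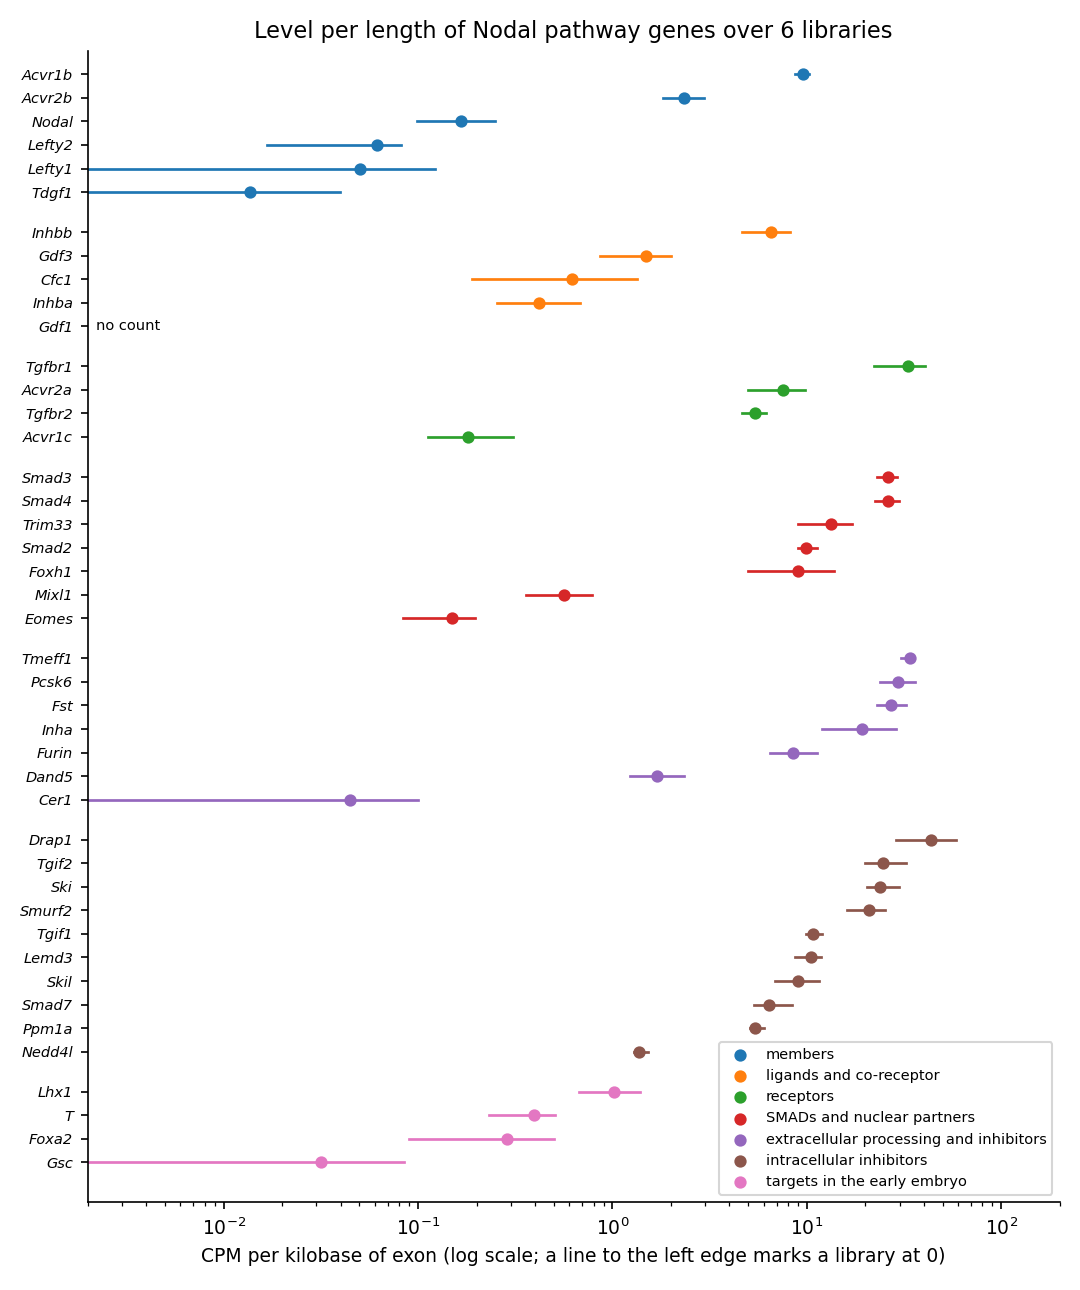
Level per length of the 6 members and 37 other pathway genes, as CPM per kilobase of exon (x axis, log scale), with the mean of 6 libraries as a point and the lowest to highest library as a line, coloured by role. Nodal, Lefty2, Lefty1 and Tdgf1 (0.167 to 0.0137) lie far left of Acvr1b (9.55), Smad3 and Smad4, and Gdf1 had no count.

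**Figure D4:**
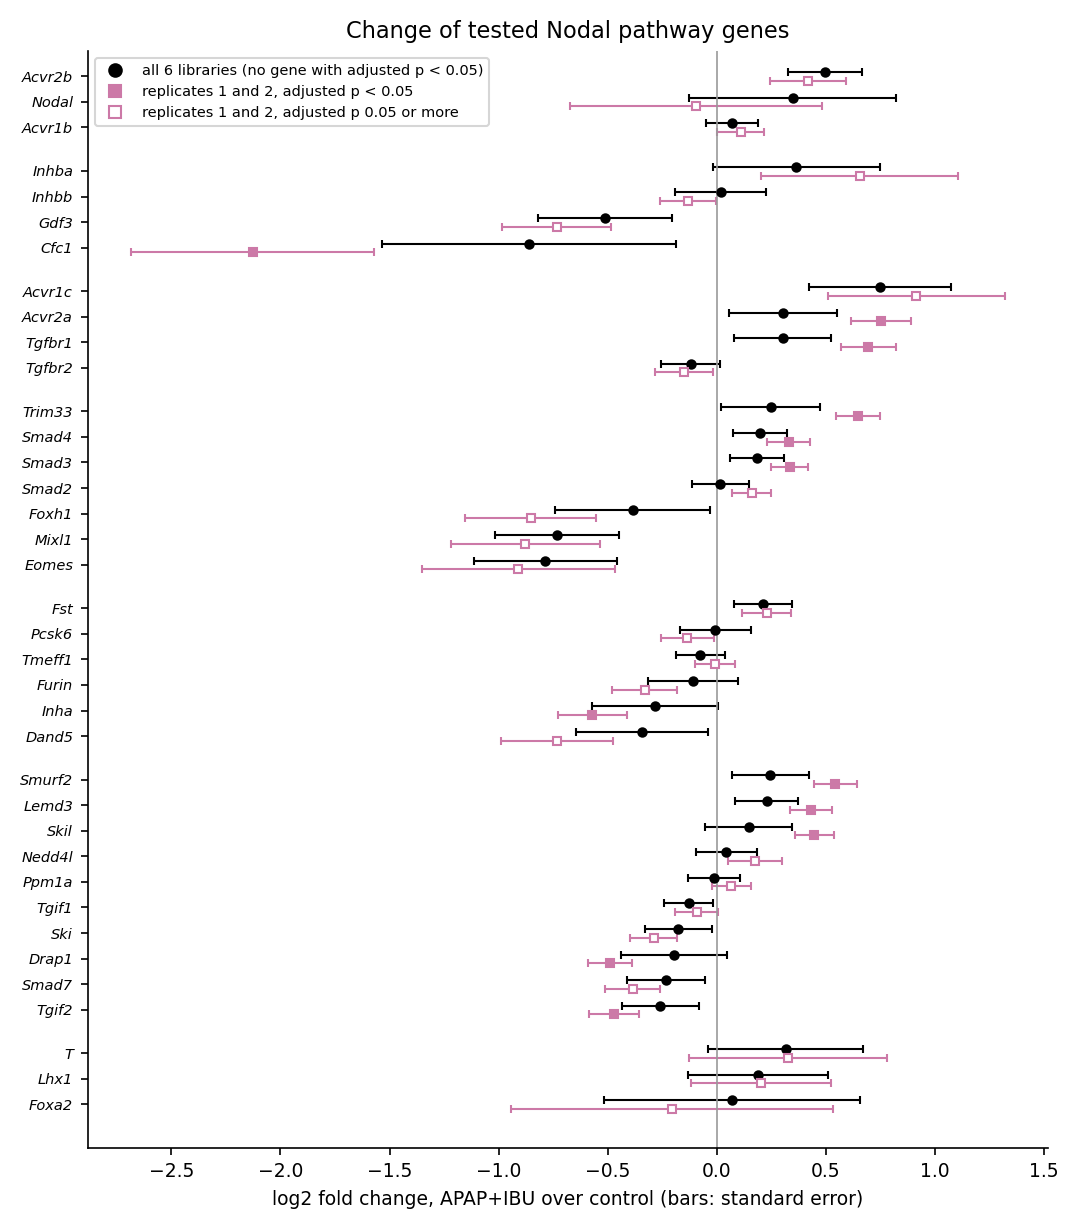
Log2 fold change of APAP+IBU over control (x axis) for the 37 tested pathway genes (3 members and 34 others), with standard errors, for all 6 libraries (black circles) and for replicates 1 and 2 of each group (squares, filled where the adjusted p was under 0.05). With 6 libraries 0 genes were called. With replicates 1 and 2, 8 lie to the right of 0 and 4 to the left among the filled squares, and none of the members is filled.

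The genes that accompany Nodal signals in male fetal germ cells were then described. Of 6 male fetal germ cell genes, 4 were tested and none was called with 6 libraries. Nanos2, an RNA-binding regulator of male germ cells, was at 0.210, 0.241 and 0.299 CPM in control and 0.177, 0.218 and 0.130 CPM in APAP+IBU libraries, which overlap, and like Nodal it was at trace level. Dnmt3l, a cofactor of DNA methylation in male germ cells, lay between 0 and 0.138 CPM. Among 4 signals of the male gonad, Cyp26b1, which degrades retinoic acid, was at 18.7, 17.8 and 11.3 CPM in control and 10.98, 7.36 and 9.74 CPM in APAP+IBU libraries. Ptgds, a prostaglandin D synthase gene, was at 4.85, 2.04 and 1.87 CPM against 1.28, 1.03 and 1.301 CPM. Neither overlapped between the groups, and 5.92% of all tested genes lay lower in every exposed library. Their log2 fold changes were -0.76 (standard error 0.25) and -1.28 (standard error 0.41), each at an edgeR adjusted p of 0.692 with 6 libraries. With replicates 1 and 2 both fell (adjusted p = 0.0180 and 0.0397), as did 12.9% of all tested genes. The other 2, Fgf9 and Fgfr3, were called in neither fit.

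Of 14 pluripotency genes, which mark the state in which Nodal signals are known to act, 13 were tested. Their point estimates were lower for 12 and higher for 1, with a median log2 fold change of -0.42, and none was called with 6 libraries. Pou5f1 was at 144, 94.8 and 84.5 CPM in control and 57.5, 64.0 and 108 CPM in APAP+IBU libraries, and Sox2 at 18.6, 10.2 and 13.5 CPM against 11.5, 9.94 and 14.9 CPM. Nanog was at 7.08, 4.18 and 11.2 CPM against 3.53, 4.11 and 9.55 CPM. The groups overlapped for all 3 genes, with APAP+IBU replicate 3 the highest exposed library each time. That library was also the highest exposed one for Nodal, Tdgf1, Lefty2 and Acvr2b, but not for Lefty1 or Acvr1b. Dppa3, a maternal-effect gene of germ cells, was at 93.5, 54.5 and 63.5 CPM in control and 37.2, 36.3 and 60.4 CPM in APAP+IBU libraries. Lin28a, an RNA-binding protein gene, was at 154, 115 and 150 CPM against 94.5, 99.7 and 127 CPM. Both overlapped between the groups, with 6-library log2 fold changes of -0.66 (standard error 0.26) and -0.38 (standard error 0.17), each at an adjusted p of 0.692 in edgeR. Dppa5a (-0.42), Klf4 (-0.44) and the male fetal germ cell gene Tex19.1 (-0.35) were likewise not called with 6 libraries, at adjusted p of 0.692 each. With replicates 1 and 2, 9 of the 13 fell, among them Pou5f1 by 0.95 on the log2 scale (adjusted p = 0.0121), against 12.9% of all tested genes. Correcting these 4 libraries for gene length and GC content lowered the calls over the pluripotency, male and germ cell marker lists from 15 to 4 of 29. Over all 20633 tested genes, the same correction lowered the calls from 5607 to 2709. Of the 8 germ cell markers none was called with 6 libraries. Ddx4, a germ cell RNA helicase gene, was at 213, 191 and 268 CPM in control and 246, 251 and 224 CPM in APAP+IBU libraries, and Dazl, an RNA-binding protein gene, at 368, 380 and 553 CPM against 587, 592 and 476 CPM. Over these 4 lists, 22 of 29 tested genes had lower and 7 higher point estimates. At an unadjusted p under 0.05, 4 were lower and 0 higher, where 6.22% of all tested genes passed, 648 lower and 606 higher of 20167. DESeq2 called 0.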

How the data were processed

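RNA-seq libraries of 6 ovary pools at 13.5 dpc were compared, 3 control and 3 APAP+IBU, grouped by the exposure label. The authors prepared stranded polyadenylated libraries, mapped reads with TopHat2 2.0.14 to mm10 and counted them with HTSeq 0.6.1 (versions per the submitters' processing notes), and deposited raw counts per Ensembl gene. The strand setting of the counting is not given in the sources used here.

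From the counts, R 4.3.3 and edgeR 4.0.16 were used. The expression filter left 20167 genes, libraries were scaled by TMM, and quasi-likelihood p-values were adjusted after Benjamini-Hochberg with a threshold of 0.05. DESeq2 1.42.0 was an alternative. CPM are TMM-normalised, and log2 CPM used a prior count of 1. Ratios of summed counts have exact 95% intervals. Gene names, positions and exon lengths came from GENCODE on GRCm38, the assembly of mm10, in a later release than the authors' annotation. The correction for length and GC content used a loess fit (span 0.3). Scripts were tested on simulated data. Total counts of 37811968 to 48954631 put 3 counts at 0.0592 to 0.0803 CPM.

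The members and lists were chosen with earlier results of these data known. Named are the 6 members, pathway and germ cell genes with an adjusted p under 0.05 in either fit (the 10 of smallest p), and a fixed set of pathway genes. Other pathway genes were named after their values were seen, to account for a count. 1 gene of the pathway lists is not reported here. Replicate numbers come from titles and mark different embryos. Libraries of 1 group differed by a chi-square per degree of freedom of 13.2 to 109, so none was a duplicate.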

Additional observations from a re-analysis of the deposited data

How the results depend on the processing

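The log2 fold changes of Acvr1b and Acvr2b kept their direction and stayed uncalled under all 16 alternatives. Without 1 library at a time they ran from 0.03 to 0.10 and from 0.41 to 0.56. Nodal did so under 14 and ran from 0.08 to 0.71 without 1 library at a time, but turned to -0.10 with replicates 1 and 2 alone. With the length and GC correction it was 0.31 for those 4 libraries and 0.54 for all 6. At least 10 counts in every library removes Nodal, and Tdgf1, Lefty1 and Lefty2 are tested only without a filter. Relative to germ cell markers, Nodal turned to -0.035 with Dazl alone and ran from 0.15 to 0.69 without 1 library at a time, and Tdgf1 from 0.002 to 1.11, an unsettled size.

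No gene was called in all 6 libraries by edgeR (1254 at an unadjusted p under 0.05). DESeq2 called 236, and edgeR without a filter 120. Leaving out 1 library gave 0 to 1064 genes, the 1064 without control replicate 3. Replicates 1 and 2 gave 5607, and 2709 with the length and GC correction. Deviations of same-numbered libraries over all tested genes correlated at -0.07, -0.02 and -0.04. Replicate 3 had the highest liver marker sum in both groups (2032 and 3303 CPM). Whether same-numbered libraries share an experiment was not tested. With the replicate number as a block, 2 genes were called, and 34 with the correction, none of them a member or a gene of the further pathway or germ cell lists. The block gave Acvr2b a log2 fold change of 0.49 (edgeR adjusted p = 0.913) and changed no call of these genes. For the 37 further pathway genes the counts were 0 to 2 without 1 library (2 without control replicate 3), 12 with replicates 1 and 2 and 5 with the correction. For the germ cell lists they were 0 to 1 (1 without control replicate 3), 15 and 4. The cause was not tested. Upper quartile scaling moved the split at an unadjusted p under 0.05 from 606 higher and 648 lower to 414 and 821. Among the 6 members, Tdgf1 and Lefty1 had the fewest counts, 9 and 23 over 6 libraries.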
